A study of Mus musculus with 6 samples.

Results

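The data cover 8 chemokine transcripts of mouse resident peritoneal macrophages, measured with and without oxidized LDL (oxLDL), out of 81690 Ensembl transcripts on the array. The transcripts were those of Cxcl13, Ccl2, Ccl3, Ccl4, Ccl5, Cxcl1, Cxcl2 and Cxcl10, 1 for each gene, and all 8 were found by their identifiers in the deposited table. The macrophages came from female C57BL/6J mice 8 to 12 weeks old, whose cells were pooled within an experiment and purified by adherence to plastic, and no group carried a transgene or deletion. In each of 3 replicate experiments, the wells came from 1 pool of cells. They received either 25 µg/mL of human LDL oxidized with copper sulfate or vehicle for 24 h. This gave 3 oxLDL arrays and 3 vehicle arrays (Affymetrix Mouse Exon 1.0 ST). The set was selected on measured values in part, since Cxcl13 was picked for its fall on these same arrays and the other genes were picked with the results known. The differences between oxLDL and vehicle are therefore given as a description, without p-values.

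Chemokines are small secreted proteins that guide leukocytes along concentration gradients through G protein-coupled receptors. They are named by their conserved cysteines, which are adjacent in the CC group and separated by another residue in the CXC group. Macrophages are a main source of them, and the set spans several roles. Cxcl13 attracts B cells through CXCR5 and helps to organize lymphoid tissue, including the B-cell clusters of body cavities. Ccl2 recruits monocytes through CCR2, Ccl3, Ccl4 and Ccl5 attract monocytes and T cells, Cxcl1 and Cxcl2 attract neutrophils through CXCR2, and Cxcl10 is an interferon-inducible ligand of CXCR3 on T cells.

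The values are transcript levels on a log2 scale, so that a difference of 1 is 2-fold. No row of the table is named by gene, and 0 of the 81690 identifiers were found in the gene table used here, so the gene names are those that came with the choice of transcripts, and neither the other chemokines and receptors nor markers of macrophages, B cells or other cell types were read. A transcript was tested only when its mean over the 6 arrays exceeded 8.74, the median of all transcripts, which left 40845 transcripts and 6 of the 8 chemokines. Cxcl13 passed this limit only through its vehicle arrays. The Ccl4 and Cxcl10 transcripts did not pass it, at means of 8.62 and 8.15. The median difference of the tested transcripts was -0.10, and it was 0.02 after quantile normalization of the deposited values, so small differences should be read against this shift.

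The chemokines did not move as a group. At a q-value below 0.05 and a change of at least 2-fold (limma), Ccl2 and Ccl3 were called higher with oxLDL, 2 of the 6 tested, where 0.686% of all tested transcripts were called higher. Only Cxcl13 was called lower, 1 of the 6, where 2.45% of all tested transcripts were. Without the fold-change limit, Ccl2 and Ccl3 were again the 2 called higher (10.7% of all tested transcripts) and Cxcl13, Ccl5 and Cxcl2 were the 3 called lower (30.8% of all tested transcripts). All oxLDL arrays lay above all vehicle arrays for 2 of the 6 (12.7% of all tested transcripts) and below them for 2 of the 6 (32.5%). The sign of the difference was the same in all 3 experiments for 5 of the 6 (66.7% of all tested transcripts). Nothing is read from these counts, because the choice of the set used the same contrast. The median difference was -0.03 over the 8 transcripts and -0.22 over the 6 tested.

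**Figure D1:**
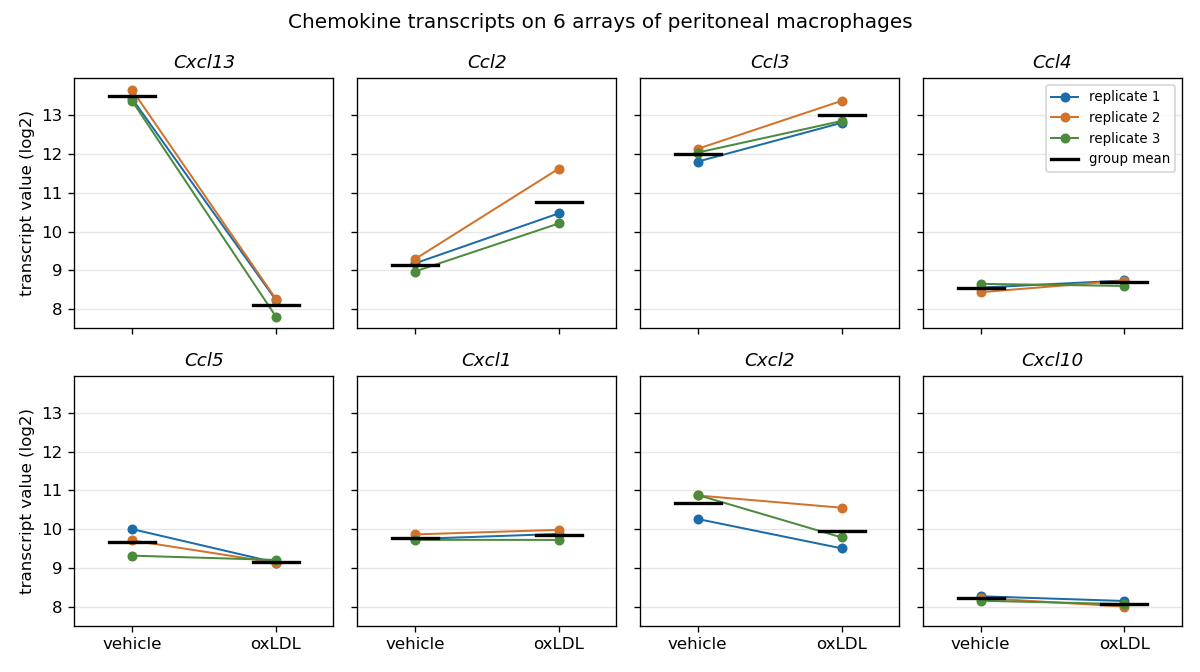
Values (log2) of the 8 chemokine transcripts on each array, 1 panel for each gene on a common axis, with lines joining the vehicle and oxLDL arrays of the same replicate experiment and black bars at the group means. Cxcl13 dropped from above 13 to near 8 in all 3 experiments, Ccl2 and Ccl3 were higher with oxLDL in all 3, and Ccl4, Cxcl1 and Cxcl10 were nearly level.

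Cxcl13, the B-cell attractant, was bright on the vehicle arrays, and its value with oxLDL had dropped by 5.38 on the log2 scale. Its transcript, ENSMUST00000023840_at, had values of 13.43, 13.65 and 13.37 on vehicle arrays 1, 2 and 3, and of 8.24, 8.27 and 7.81 on the oxLDL arrays in the same order. The groups were far apart, with a gap of several log2 units between the lowest vehicle array and the highest oxLDL array. The group means were 13.48 ± 0.15 (SD, n = 3) and 8.11 ± 0.25 (SD, n = 3), a ratio of 41.5 on the linear scale of the deposited values, with a standard error of 0.13 on the log2 difference. This was the lowest difference, rank 1, of the 40845 tested transcripts, which is the property for which the gene was chosen. The difference within experiments 1, 2 and 3 was -5.19, -5.39 and -5.55. The oxLDL values lay below the 8.74 used as the limit for testing, and signal over background was not assessed, so how much Cxcl13 RNA was left after oxLDL is not known and the ratio is one of array values. In a whole-well RNA sample, fewer cells of a type and less RNA per cell cannot be told apart.

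Some transcripts had a profile close to that of Cxcl13. Among the 54 transcripts outside the set whose standard deviation over the 6 arrays was at least 0.5 times that of Cxcl13, the closest by Pearson's r over the 6 arrays were ENSMUST00000130471_at (r = 0.9993) and ENSMUST00000068877_at (r = 0.9991), both without a gene name here. ENSMUST00000130471_at had a mean of 12.51 with vehicle and 9.73 with oxLDL, a difference of -2.78. ENSMUST00000068877_at had means of 12.19 and 9.003, a difference of -3.19. Both differences were therefore smaller than that of Cxcl13 on the log2 scale. These correlations mainly repeat the difference between the 2 groups, and no p is attached to them.

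The monocyte attractant Ccl2 (ENSMUST00000000193_at) was higher with oxLDL in every experiment. It had values of 9.18, 9.29 and 8.97 on the vehicle arrays and 10.47, 11.62 and 10.21 on the oxLDL arrays. The groups did not overlap, but the oxLDL array of experiment 2 stood more than 1 log2 unit above the other oxLDL arrays. The means were 9.15 ± 0.16 (SD, n = 3) and 10.77 ± 0.75 (SD, n = 3), a difference of 1.62 (standard error 0.29) or 3.07-fold. Within experiments 1, 2 and 3 the difference was 1.29, 2.33 and 1.24. Leaving out the oxLDL array of experiment 2 lowered the difference to 1.19, still above 2-fold.

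Ccl3, which encodes the inflammatory chemokine also called MIP-1α, was bright already with vehicle and brighter with oxLDL. Its transcript ENSMUST00000001008_at had values of 11.80, 12.13 and 12.03 on the vehicle arrays and 12.80, 13.37 and 12.85 on the oxLDL arrays. Every oxLDL array exceeded every vehicle array, and experiment 2 was again the highest. The means were 11.99 ± 0.17 (SD, n = 3) and 13.00 ± 0.31 (SD, n = 3), a difference of 1.02 (standard error 0.15) or 2.02-fold, and the differences within the experiments were 1.00, 1.23 and 0.81. The call as 2-fold higher was thus a narrow one. It was lost at 0.92 without vehicle replicate 1, at 0.83 without oxLDL replicate 2 and at 0.91 without both arrays of replicate 2, although the difference kept its sign.

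**Figure D2:**
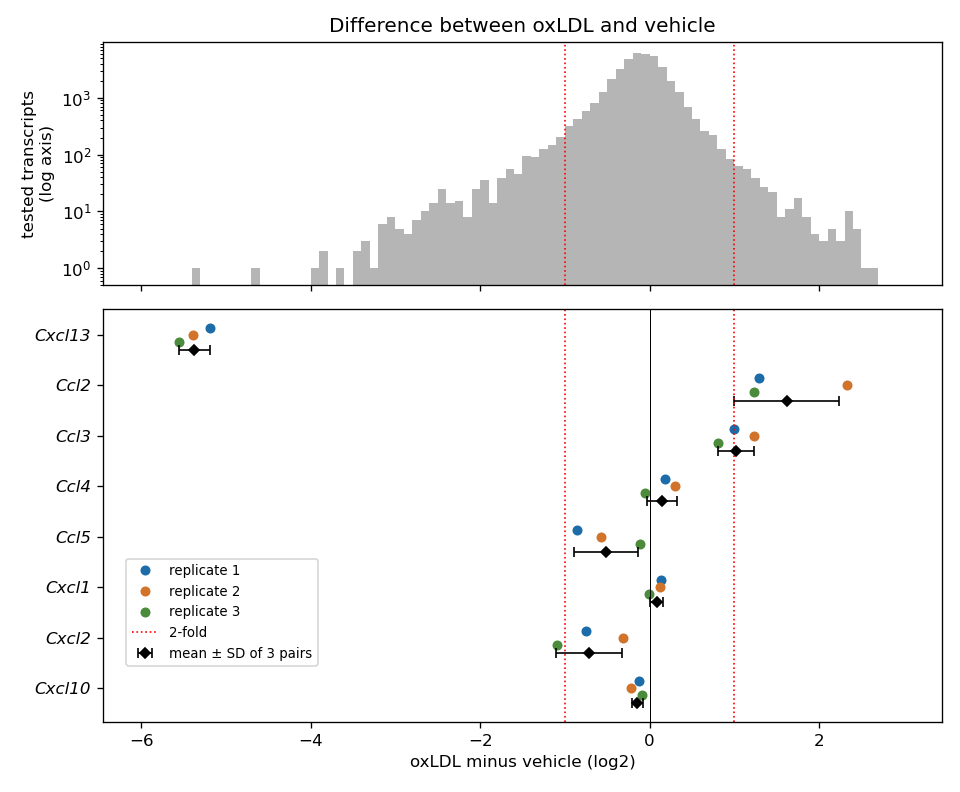
Upper panel, the number of tested transcripts (log axis) by their mean difference between oxLDL and vehicle (log2); lower panel, the difference within each replicate experiment for the 8 chemokines (coloured points) with the mean and SD of the 3 experiments (black). Dotted red lines mark 2-fold; Cxcl13 lies at the far left end of all tested transcripts, Ccl2 and Ccl3 lie to the right of 2-fold by their means, and the other 5 means lie between the lines.

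Ccl4, the chemokine encoded beside Ccl3, had close values in the 2 groups. Its transcript ENSMUST00000019074_at had values of 8.56, 8.44 and 8.65 with vehicle and 8.74, 8.74 and 8.60 with oxLDL. The groups overlapped and the difference changed sign between experiments, at 0.19, 0.30 and -0.05. The mean difference was 0.14 ± 0.18 (SD of the 3 pairs). The mean of Ccl4 was below the limit for testing, and whether its signal exceeded background was not assessed.

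Ccl5, also called RANTES and an attractant of T cells, was lower with oxLDL in all experiments but by unequal amounts. ENSMUST00000035938_at had values of 10.01, 9.71 and 9.32 on vehicle arrays 1, 2 and 3 and of 9.14, 9.14 and 9.21 on the oxLDL arrays. The groups did not overlap, though the lowest vehicle array and the highest oxLDL array, both from experiment 3, were close. The vehicle arrays spread widely while the oxLDL arrays were nearly identical. The SD was 0.34 with vehicle, larger than that of 98.6% of tested transcripts, and 0.04 with oxLDL, larger than that of only 9.47%. The difference varied with the vehicle value, at -0.86, -0.58 and -0.11 in experiments 1, 2 and 3, with a mean of -0.52 (standard error 0.15) or 1.43-fold. It was short of the 2-fold limit under every setting in which it was computed, and after quantile normalization it was -0.40.

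The neutrophil attractants Cxcl1 and Cxcl2 are encoded side by side, and only Cxcl2 was lower in every experiment. Cxcl1 (ENSMUST00000031327_at) had values of 9.75, 9.87 and 9.73 with vehicle and 9.88, 9.99 and 9.73 with oxLDL. The groups overlapped, and the differences of 0.13, 0.12 and -0.003 averaged 0.08 (standard error 0.10). Cxcl2 (ENSMUST00000075433_at) had values of 10.26, 10.87 and 10.88 with vehicle and 9.51, 10.56 and 9.79 with oxLDL. As groups these overlapped, since the oxLDL array of experiment 2 was brighter than the vehicle array of experiment 1, but within each experiment the oxLDL array was the dimmer one, by -0.76, -0.31 and -1.09. The mean Cxcl2 difference was -0.72 (standard error 0.25), or 1.65-fold, with an SD of 0.39 over the pairs. The Cxcl2 SD was among the larger ones in both groups, above that of 98.8% of tested transcripts with vehicle and 99.1% with oxLDL. Without oxLDL replicate 2 the Cxcl2 difference was -1.02 and the transcript was called lower, and without oxLDL replicate 1 it was -0.50.

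Cxcl10, the interferon-inducible CXCR3 ligand, was dim in both groups. ENSMUST00000038816_at had values of 8.28, 8.23 and 8.16 with vehicle and 8.15, 8.01 and 8.07 with oxLDL. All oxLDL arrays lay just below all vehicle arrays, and the mean difference was -0.14 ± 0.07 (SD of the 3 pairs). The median tested transcript differed by -0.10, which left -0.04 for Cxcl10 relative to it. Cxcl10 was below the limit for testing, so it did not enter that median. After quantile normalization, which took the median to 0.02, Cxcl10 was at -0.15.

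The spread within the groups was compared between the experiments. The oxLDL array of experiment 2 was the highest oxLDL array for 5 of the 6 tested chemokines (Cxcl13, Ccl2, Ccl3, Cxcl1 and Cxcl2), and for 55.6% of all tested transcripts. In 4 of the 6 (Cxcl13, Ccl2, Ccl3 and Cxcl1) the vehicle array of experiment 2 was also the highest of its group, and both held for 23.6% of all tested transcripts. Neither held for the dim Ccl4 and Cxcl10. With 6 genes chosen with the results known, nothing is read from these shares. The amounts differed between the genes. On the oxLDL array of experiment 2, Ccl2 stood 0.85 above its group mean, further than 99.9% of tested transcripts, Cxcl2 0.60 above, further than 99.5%, and Ccl3 0.36 above, further than 96.7%. Cxcl13, at 0.16, was further above than 77.4%. On the vehicle array of the same experiment Ccl2, Cxcl2, Ccl3 and Cxcl13 stood 0.14, 0.20, 0.14 and 0.17 above their means, further than 91.8%, 95.9%, 91.8% and 94.3% of tested transcripts. Experiment 2 thus had the highest Ccl2, Ccl3 and Cxcl2 values with oxLDL, and with it the largest increase of Ccl2 and Ccl3 and the smallest decrease of Cxcl2. With 1 well per condition in each experiment, a difference between experiments has no replicate of its own, and its relation to the wells, the mice or the arrays was not tested.

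**Figure D3:**
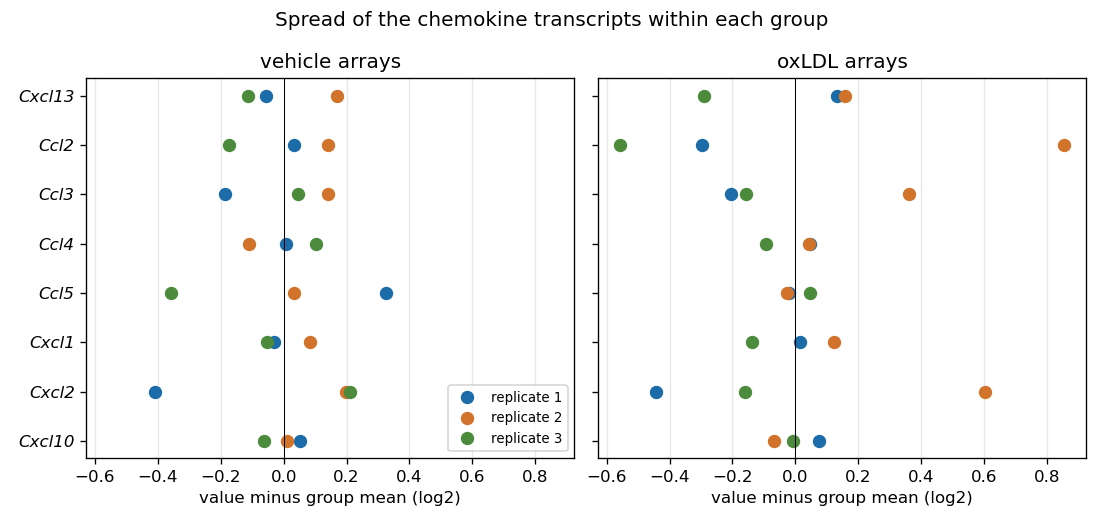
Value of each chemokine transcript on each array minus the mean of its group (log2), for the vehicle arrays on the left and the oxLDL arrays on the right, coloured by replicate experiment. Replicate 2 stands far to the right on the oxLDL arrays for Ccl2, Cxcl2 and Ccl3, while Ccl5 is spread among the vehicle arrays and narrow among the oxLDL arrays.

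The genes lie on 2 chromosomes, some of them side by side and others far apart. In the RefSeq gene table of GRCm38, Ccl2, Ccl5, Ccl3 and Ccl4 lie in this order on chromosome 11, and Cxcl1, Cxcl2, Cxcl10 and Cxcl13 in this order on chromosome 5. The table lists 58 genes between Ccl2 and Ccl5, 6 between Ccl5 and Ccl3, 43 between Cxcl2 and Cxcl10 and 69 between Cxcl10 and Cxcl13. No gene is listed between Cxcl1 and Cxcl2, whose differences were 0.08 and -0.72. No gene is listed between Ccl3 and Ccl4 either, whose annotated spans overlap and whose differences were 1.02 and 0.14. The difference between neighbours was not tested.

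Promoter sequences, the 250 bases before the transcription start in RefSeq (GRCm38.p6), were at hand for 5 of the genes and are shown for the largest fall, for a gene that was higher with oxLDL, and, as the last 110 bases, for the neighbours Cxcl1 and Cxcl2. They were searched on both strands for a kappaB pattern of GGGA and CC with any 4 bases between them. This is a loose form of the sequences that NF-kappaB proteins bind, so a match need not be such a site. The search also covered the interferon-stimulated response pattern of GAAA and GAAA with any 2 bases between them. It covered the AP-1 pattern TGANTCA and the LXR pattern of AGGTCA repeated after any 4 bases as well. Capitals mark every match, and overlapping matches run together.

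Cxcl13, chr5:95956689-95956938, plus strand: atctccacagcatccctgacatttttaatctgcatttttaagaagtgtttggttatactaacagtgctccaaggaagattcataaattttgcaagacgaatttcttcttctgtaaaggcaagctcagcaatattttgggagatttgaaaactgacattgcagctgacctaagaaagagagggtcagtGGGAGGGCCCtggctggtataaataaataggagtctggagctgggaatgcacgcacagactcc

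Ccl3, chr11:83649379-83649628, minus strand: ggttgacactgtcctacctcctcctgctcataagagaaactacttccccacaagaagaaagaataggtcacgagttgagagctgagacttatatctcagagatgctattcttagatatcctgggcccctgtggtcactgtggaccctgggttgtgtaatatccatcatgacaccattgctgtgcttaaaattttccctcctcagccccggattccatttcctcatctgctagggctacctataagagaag

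Cxcl1, chr5:90891135-90891244, plus strand: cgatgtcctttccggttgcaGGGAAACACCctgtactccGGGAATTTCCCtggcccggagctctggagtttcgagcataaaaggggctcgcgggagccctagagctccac

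Cxcl2, chr5:90903789-90903898, plus strand: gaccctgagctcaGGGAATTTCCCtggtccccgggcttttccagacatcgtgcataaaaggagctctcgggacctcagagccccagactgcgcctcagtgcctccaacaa

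The neighbours Cxcl1 and Cxcl2 carry the same kappaB match, GGGAATTTCC, starting 71 bases before the start of Cxcl1 and 97 bases before that of Cxcl2, inside a stretch of 14 identical bases, GGGAATTTCCCTGG, the longest run that the windows of the pair share. Read from the other strand, the same site matches again 1 base further on. Cxcl1 has a further match, GGGAAACACC, 90 bases before its start. In Cxcl13 the pattern occurred once, as GGGAGGGCCC at 63 bases before the start, and in Ccl3 none of the patterns occurred in this window. Cxcl10 held kappaB matches at 159 bases (GGGAAATTCC) and 103 bases (GGGACTTCCC), an interferon-stimulated response match at 213 bases (GAAAGTGAAA) and an AP-1 match at 74 bases (TGAGTCA). Over all 32851 promoters of this length, 17.6% held the kappaB pattern, 2.98% the interferon-stimulated response pattern, 6.75% the AP-1 pattern and 0.0152% the LXR pattern. Genes with the kappaB pattern thus included the largest fall (Cxcl13), a smaller one (Cxcl2, mean difference -0.72) and nearly level ones (Cxcl1 and Cxcl10). A match is a sequence of letters and was not linked to binding here.

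**Figure D4:**
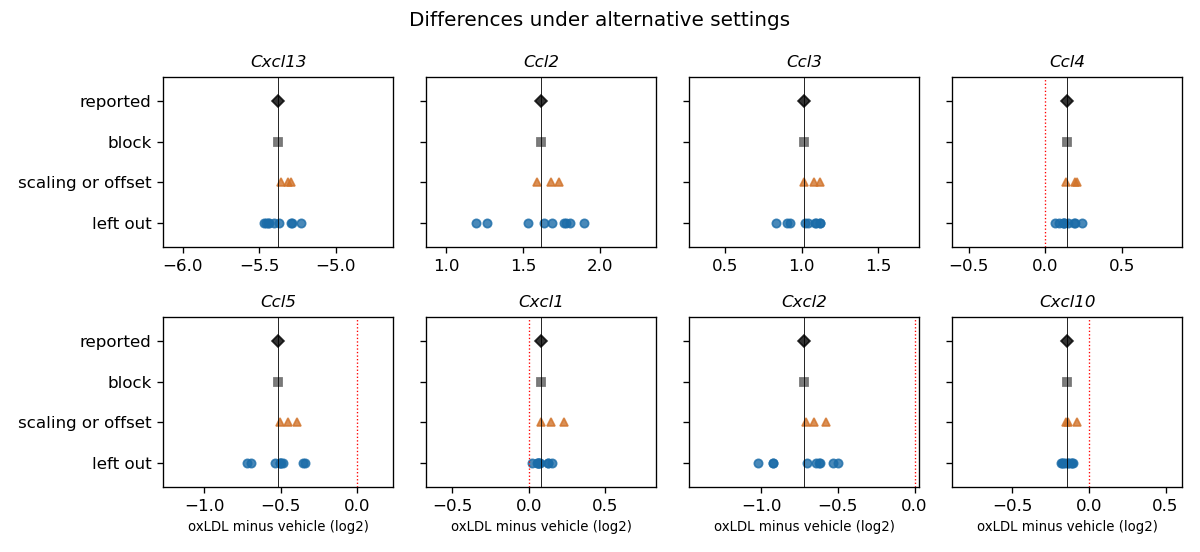
Mean difference between oxLDL and vehicle (log2) of each chemokine transcript as reported (black), with the replicate block (grey), under quantile normalization, median centring or an added offset (orange), and with arrays left out (blue); every panel spans 1.5 log2 units centred on the reported value, and the dotted red line marks 0 where it falls inside. No mean difference crossed 0, Cxcl13 stayed between -5.47 and -5.23, and Ccl2 ranged most, from 1.19 to 1.90.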

How the data were processed

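Total RNA was isolated from 3 vehicle and 3 oxLDL wells, and its mRNA was amplified, labelled and hybridized as cDNA to exon arrays. The deposited table holds a log2 value per transcript and array, which the authors obtained with PLIER. Transcripts were those of Ensembl release 65, as defined by CustomCDF version 15. Arrays had been brought to a common distribution by quantiles at the probe level, and background was not subtracted. The log base was read from the range of the values, 5.95 to 14.42, and any offset before the logarithm is not given in the sources used here. The authors' detection calls were not used here.

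Groups and replicate numbers came from the sample titles. All 40845 transcripts with a mean above the median of all transcripts were fitted with limma 3.58.1 in R 4.3.3 (prior proportion 0.1, no covariate, two-sided), with q-values by Storey's method. The fit was tested on simulated data drawn without a shared replicate effect, so that test does not cover the pairing of these arrays. Deviations from group means correlated at 0.51 to 0.67 for a vehicle and an oxLDL array that share a replicate number and at -0.53 to -0.04 for the rest, and the wells of an experiment shared 1 pool of cells, so the numbers pair the arrays. The methods name no pair term, so the pairs enter as differences within experiments and as an alternative fit. The named transcripts were all 8 chemokines and the 2 most like Cxcl13. The members and lists were chosen with earlier results of these data known. Promoters came from RefSeq (GRCm38.p6). The array number, 3 per group, limits precision. Figures were drawn with matplotlib 3.10.9.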

Additional observations from a re-analysis of the deposited data

How the results depend on the processing

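Cxcl13 was called lower and Ccl2 higher under every alternative run, and no mean difference changed sign. Since the set was picked with these values known, this is no sign of stability. With the replicate block, fixed or random, the counts were 2 higher and 1 lower as reported, but the fixed block gave all transcripts a common variance, so its counts rest on the fold-change alone. Without the fold-change limit, 3 transcripts were lower. With arrays left out, 1 to 2 were called higher and 1 to 2 lower. The higher count fell to 1 without vehicle replicate 1, oxLDL replicate 2 or both arrays of replicate 2, each time by the loss of Ccl3, and the lower count was 2 without oxLDL replicate 2, which added Cxcl2. Cxcl1 was at 0.23 after quantile normalization, and Cxcl10 was at -0.15 after quantile normalization and -0.077 after median centring. Cxcl1 lay between 0.021 (without oxLDL replicate 2) and 0.15 (without oxLDL replicate 3) with arrays left out. Ccl4 lay between 0.066 and 0.24 with arrays left out, the highest without replicate 3. With no filter, Ccl4 and Cxcl10 were tested and not called, and among the brightest 25% Ccl5 was not tested. Signal over background was not assessed, which limits what can be said of the dim values of Ccl4, Cxcl10 and, with oxLDL, Cxcl13.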
